A study of Mus musculus with 9 samples.

Results

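Bone marrow-derived neutrophils of wild-type mice were compared between gels of high stiffness (5.7 kPa) and middle stiffness (2.6 kPa). The cells had spent 2 days inside gelatin methacryloyl hydrogel, a photocrosslinked gelatin of adjustable stiffness, in RPMI medium with 10% fetal bovine serum. The comparison used 6 of the series' 9 libraries, 3 per gel, chosen by their titles, and ran across every gene with enough counts to test (12094 of the 22173 in the files). The 3 libraries of the low gel (1.5 kPa), which served as the study's control, shared the fit, and their values are set beside those of the other gels. The age and sex of the mice, how many mice were used, whether cells were pooled and the purity of the neutrophils are not stated in the labels. Nor is it stated what a replicate number stands for, and the p-values therefore reflect only the spread from library to library, which could be technical.

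Neutrophils are short-lived phagocytes that fill their granules in stages while they mature in the marrow. Myeloperoxidase and elastase are made in early precursors, lactoferrin and related proteins later, and chemokines and cytokines mainly after activation. The transcription factor NF-kB, held back by inhibitor proteins that it induces itself, drives much of that activation program, while interferons switch on a separate set of antiviral genes through STAT factors. Neutrophil states are often sorted into pro-inflammatory (N1) and anti-inflammatory (N2), and leukocytes sense stiffness through integrins, the actin cytoskeleton and stretch-gated channels.

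Replicate 1 stood apart from replicates 2 and 3 in every gel. The first principal component, with 68.1% of the variance, separated it, and the sum of 10 neutrophil markers in CPM per kilobase was 6001 in middle replicate 1 against 23140 and 27870 in middle replicates 2 and 3, and 6035 against 18780 and 18060 in high. CPM are counts scaled to the library's TMM-normalised total. The sum of 10 macrophage markers was more even, from 2363 to 2472 in middle and from 1958 to 2596 in high. Its members were not even and differed in both directions. In middle replicates 1, 2 and 3 Gpnmb was at 1193, 549.8 and 464.8 CPM per kilobase. C1qb was at 41.41, 225.3 and 241.6 there, and Apoe at 36.11, 281.3 and 302.3. All 10 neutrophil markers of the labelled cell type were detected in every library, beside macrophage, monocyte, B cell, erythroid and megakaryocyte markers. The sum of 3 erythroid markers was 726.9, 487.7 and 552.1 CPM per kilobase in middle replicates 1, 2 and 3 and 1128, 451.9 and 331 in high. That of 4 megakaryocyte markers was 57.41, 134.2 and 174.7 in middle and 72.52, 118.5 and 147.8 in high. T cell and natural killer cell markers were at or near 0 (at most 1.28 CPM per kilobase summed in the 6 libraries compared). The 6 libraries held 13214759 to 19486546 counts. Because of replicate 1, the comparison is given with all 3 replicates and again with replicates 2 and 3 alone.

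Promoters are shown for 4 genes, chosen after their values were seen, from 3 gene lists described below with their counts: NF-kB regulators and targets, chemokines and interferon-stimulated genes. Only genes whose promoter held a match to the motif shown could be chosen, so a match in each was fixed in advance. Nfkbie, Rel and Cxcl1 rose and Tgtp2 fell in replicates 2 and 3. Each line runs 5′ to 3′ from 250 bases before to 50 bases after the start of the gene in RefSeq (build GRCm38.p6, while the counts were made on GRCm39). Nfkbie (chr17:45555450-45555749, plus strand), Rel (chr11:23770920-23771219, minus strand) and Cxcl1 (chr5:90890995-90891294, plus strand) carry, in capitals, matches to the kB consensus, the site of NF-kB dimers. Tgtp2 (chr11:49064163-49064462, minus strand) carries in capitals a match to TTCNNTTTC, the core of interferon-stimulated response elements. Both strands were searched, and overlapping matches are merged in the capitals.
Nfkbie: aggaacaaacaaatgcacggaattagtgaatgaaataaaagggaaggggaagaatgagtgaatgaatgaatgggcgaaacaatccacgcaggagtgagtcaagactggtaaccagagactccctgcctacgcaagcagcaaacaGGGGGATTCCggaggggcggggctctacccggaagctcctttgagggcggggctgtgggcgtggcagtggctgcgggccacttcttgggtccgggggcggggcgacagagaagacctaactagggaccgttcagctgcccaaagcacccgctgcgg
Rel: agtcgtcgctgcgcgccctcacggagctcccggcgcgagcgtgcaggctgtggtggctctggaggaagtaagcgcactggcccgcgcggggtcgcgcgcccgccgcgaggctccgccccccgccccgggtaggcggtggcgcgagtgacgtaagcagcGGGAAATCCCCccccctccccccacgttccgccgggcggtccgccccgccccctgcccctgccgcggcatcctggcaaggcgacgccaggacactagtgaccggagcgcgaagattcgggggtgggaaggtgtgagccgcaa
Cxcl1: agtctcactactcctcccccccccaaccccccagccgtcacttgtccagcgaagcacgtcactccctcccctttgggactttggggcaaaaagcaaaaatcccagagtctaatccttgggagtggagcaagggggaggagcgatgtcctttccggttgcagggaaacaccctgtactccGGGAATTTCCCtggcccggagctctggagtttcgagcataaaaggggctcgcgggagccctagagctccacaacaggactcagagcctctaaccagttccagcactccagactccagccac
Tgtp2: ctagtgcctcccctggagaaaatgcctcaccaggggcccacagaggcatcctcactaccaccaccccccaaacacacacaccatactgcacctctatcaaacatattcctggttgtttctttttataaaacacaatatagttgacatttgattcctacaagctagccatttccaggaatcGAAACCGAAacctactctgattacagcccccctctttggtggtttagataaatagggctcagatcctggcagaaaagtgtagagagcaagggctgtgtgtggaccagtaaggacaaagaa

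The kB consensus was present in 8.46% of all 32851 promoters in that table and in 12% of the 9830 tested genes that could be matched to it. Among the NF-kB regulators and targets it was present in 12 of 22 matched genes, and in 6 of the 12 matched members that rose in replicates 2 and 3. Over all genes it was held by 16.9% of the matched promoters of rises and 12.4% of those of falls. The interferon core was present in 8.56% of all promoters and in 8.81% of matched tested genes. It was found in 24 of 35 matched interferon-stimulated genes and in 5 of the 10 that fell. Of all genes that fell in replicates 2 and 3, 53 of 356 matched promoters (14.9%) held it, against 33 of 350 (9.43%) of those that rose. The AP-1 motif TGANTCA was present in 6.45% of matched tested genes, in 11.4% of those that rose and in 11.5% of those that fell. It was also present in 6 of the 12 matched NF-kB genes that rose, as many as held the kB consensus, and in 9 of 35 matched interferon-stimulated genes. A match describes letters in this window and not a bound site.

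With all 3 replicates and the replicate number as a block, 2 genes passed an adjusted p under 0.05 in edgeR's quasi-likelihood test, both higher in high. This was 0.0165% of the 12094 genes tested, and 1272 genes had an unadjusted p under 0.05 (548 higher and 724 lower). The genes are Car3, a carbonic anhydrase typical of fat and muscle, and Cyp2e1, a cytochrome P450 of liver and fat. Both lie under the 5 CPM set for naming genes and are named here after their values were seen. Without the block 0 genes passed (179 at an unadjusted p under 0.05), DESeq2 with the block called 96 (0.874%), 65 higher (0.592%) and 31 lower (0.282%), and edgeR on the 6 high and middle libraries alone called 118 (1%), 81 higher (0.688%) and 37 lower (0.314%). Without high replicate 1 the blocked edgeR fit called 301, without high replicate 3 it called 11, and without middle replicate 1 it called 8, while without high replicate 2, middle replicate 2 and middle replicate 3 it called 1, 0 and 2.

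Throughout, library values follow the order replicate 1, 2 and 3. Car3 was at 0, 0.0508 and 0.547 CPM in middle and 0.924, 6.28 and 5.31 CPM in high, with 0.829, 5.04 and 7.90 CPM in low. The difference between high and middle was 4.53 ± 0.52 on the log2 scale (fitted value ± standard error, 3 pairs; edgeR adjusted p = 0.0287). Every high library was above every middle library, and the low libraries were as high as the high ones, so the middle libraries are the ones that stand apart. Cyp2e1 had 0 counts in all middle libraries, 5.26, 0.679 and 1.04 CPM in high (74, 12 and 16 counts) and 4.75, 1.41 and 1.39 CPM in low. Against a floor of 3 counts per library its mean was at least 11.9-fold higher in high (edgeR adjusted p = 0.0488). Neither call held without the block (edgeR adjusted p = 1 for both) or when certain libraries were left out. For Car3 the adjusted p was 0.150 without high replicate 2 and 0.209 without middle replicate 2. For Cyp2e1 it was 0.114 without high replicate 2 and 0.112, 0.207 and 0.111 without middle replicate 1, 2 and 3. Pck1, a gluconeogenic enzyme of liver and fat also named after its values were seen, had the same shape. It stood at 0.222, 0 and 0.0683 CPM in middle, 1.49, 0.792 and 0.906 CPM in high and 1.36, 0.976 and 1.09 CPM in low (log2 3.50 ± 0.66, edgeR adjusted p = 0.102).

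Several other genes of liver and fat cells were also lowest in middle, though replicate 1 and the other replicates carried different ones. In CPM per kilobase, albumin (Alb) was 11.3 in low replicate 1 and 12.28 in high replicate 1 and at 0 in the other 7 libraries. The apolipoprotein gene Apoa1 was at 3.815 and 3.454 in those same 2 libraries and at most 0.07488 elsewhere. The fat cell genes Cfd, which encodes the complement protease adipsin, and Cidec, a lipid droplet protein, followed replicates 2 and 3 instead. Cfd was at 2.576 and 2.387 CPM per kilobase in high replicates 2 and 3, at 0.05506 and 0.5188 in middle, and at 0 in replicate 1 of every gel. Over 8 hepatocyte genes the summed level was 0.6766, 0.6508 and 0.902 CPM per kilobase in middle and 27.59, 1.41 and 1.481 in high, and 4, 7 and 6 of the 8 were at 0 in middle against 0, 5 and 4 in high. Over 16 adipocyte genes, a list that includes genes leukocytes also express such as Lpl and Acsl1, the sums were 172.5, 52.91 and 51.68 in middle and 221, 71.37 and 66.43 in high. In middle 8, 6 and 3 of the 16 were at 0, against 6, 0 and 0 in high. Not all members were higher in high. Lpl fell in replicates 2 and 3, from 12.65 and 11.36 to 10.01 and 7.867 CPM per kilobase. Apoa2 and Retn were lower in high replicate 3 than in middle replicate 3, at 0.4842 against 0.8761 and at 0.4527 against 0.8495. Slc36a2 was lower in high in replicates 1 and 3, and Adipoq in replicate 1. Only 12 adipocyte genes and 3 hepatocyte genes had enough counts to be tested in replicates 2 and 3, where 7 rose and 1 fell of the first and 2 rose and 0 fell of the second. The 2 hepatocyte rises are Cyp2e1 and Pck1, which are also counted among the 7 adipocyte rises, as is Car3. Both lists were made after the values of Car3 and Cyp2e1 were seen, so these counts are not separate from those genes. The part of other cells in the 2 calls was not tested.

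**Figure D1:**
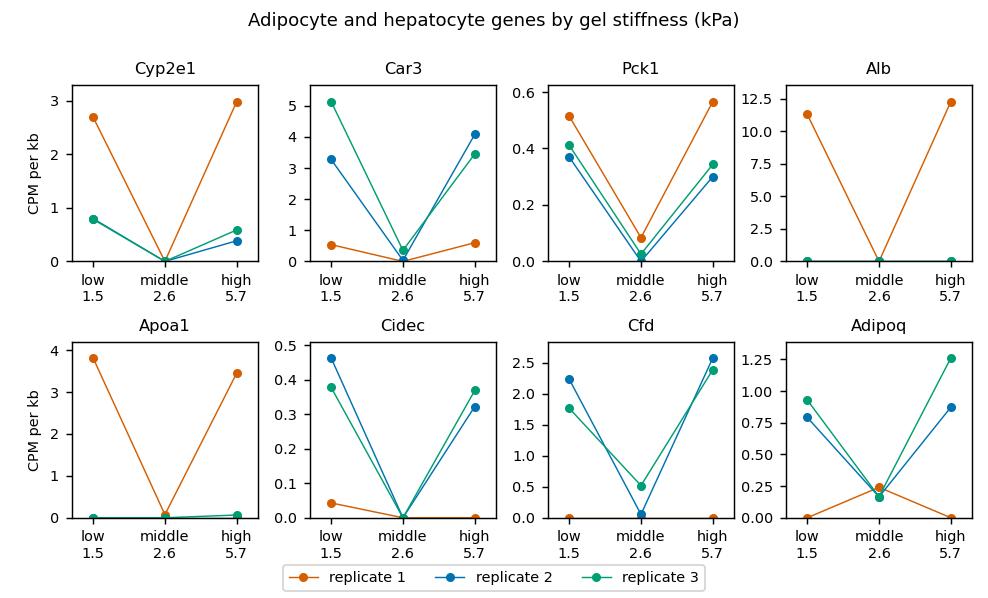
Level of 8 liver and fat cell genes in each of the 9 libraries, in CPM per kilobase of exon, against gel stiffness in kPa, with lines joining libraries of the same replicate number. Every panel dips at the middle gel in the replicates with the highest levels of the gene: albumin is at 11.3 and 12.28 only in replicate 1 of the low and high gels, and Cfd only in replicates 2 and 3. In replicate 1 Adipoq peaks at the middle gel instead, at 0.2402 beside 0 in low and high.

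Among genes of higher abundance, those with the smallest p over the 3 replicates fell just short of the threshold, and they are named after their values were seen. Cxcl1, a chemokine that draws neutrophils through the receptor CXCR2, was at 150.3, 55.8 and 62.7 CPM in middle and 276, 91.4 and 99.8 CPM in high. All 3 pairs were higher in high, by a log2 difference of 0.87, 0.71 and 0.67, although the groups overlap because replicate 1 ran higher in both gels. The fitted difference was 0.75 ± 0.11 (edgeR adjusted p = 0.079), and over the alternative settings that adjusted p ranged from 3.4e-05 with DESeq2 to 1 without the block. Il10, which encodes the anti-inflammatory interleukin-10, was at 47.4, 39.9 and 42.8 CPM in middle, 82.8, 61.8 and 62.7 CPM in high and 30.4, 18.97 and 19.8 CPM in low. Its 3 high libraries were all above its 3 middle libraries. The log2 difference was 0.66 ± 0.10 (adjusted p = 0.079 by edgeR, 0.00047 by DESeq2 and 0.0602 by limma-voom). Treml4, a receptor of the TREM family, was as even, with 98.9, 89.2 and 97.5 CPM in middle and 138, 125 and 135 CPM in high (log2 0.48 ± 0.08).

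Further genes of that group had the same sign in each pair without passing the blocked edgeR test. Scd1, a fatty acid desaturase, had log2 differences of 0.54, 0.97 and 0.60 in replicates 1, 2 and 3 (fitted 0.75 ± 0.12). Spp1, the matrix protein osteopontin, had 0.56, 0.54 and 0.85 (fitted 0.65 ± 0.11), and Procr, the endothelial protein C receptor, 0.60, 0.53 and 0.91 (fitted 0.67 ± 0.11). The gap junction gene Gja1 (connexin 43) was at 8.88, 8.63 and 10.5 CPM in middle and 11.7, 24.1 and 29.8 CPM in high, without overlap, and its differences of 0.39, 1.47 and 1.49 were smallest in replicate 1. Lower in high were Fcnb, a ficolin of immature granulocytes, with -0.85, -1.07 and -1.14 (fitted -1.12 ± 0.17), and Hpgds, which makes prostaglandin D, with -0.94, -0.57 and -0.39 (fitted -0.64 ± 0.11). The edgeR adjusted p of these 6 genes lay between 0.079 (Scd1) and 0.0944 (Spp1). Scd1 and Fcnb passed with DESeq2 (adjusted p = 0.0013 and 0.0062) but not with limma-voom (adjusted p = 0.279 and 0.386). Over all tested genes the high and middle libraries did not overlap for 307 genes higher in high (2.54%) and 307 lower (2.54%).

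Replicates 2 and 3 alone gave a broad difference between the gels. In them 900 of 12214 tested genes (7.37%) had an adjusted p under 0.05 by edgeR, 450 higher (3.68%) and 450 lower (3.68%) in high, and 51 and 60 of these changed at least 2-fold. The biological coefficient of variation was 0.075 in this fit, against 0.115 with all 3 replicates and the block. DESeq2 called 540 (5.62% of its tested genes), 311 higher (3.23%) and 229 lower (2.38%), 537 of them among the 900. Leaving out 1 more library moved the count from 460 (without high replicate 3) to 1551 (without middle replicate 3). In what follows "rose" and "fell" mean a pass in this fit. Log2 values are its fitted high minus middle differences ± standard error (2 pairs). The CPM of replicate 1 are printed for some genes only, and the others may differ there. Of 896 passes tested in all libraries, 567 had the same sign in replicate 1. Iigp1, Ly6g and Cd180, which fell, were higher in high in replicate 1, by 0.71, 0.43 and 0.26. The median over all tested genes was -0.01, and lists are read against 3.68% higher and 3.68% lower.

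Several cytokine genes rose. Of 26 tested interleukin and growth factor genes 9 rose and 1 fell (median 0.20), and the 10 passes were 6 by DESeq2, 5 without high replicate 3 and 6 without middle replicate 2. Csf3, the granulocyte colony-stimulating factor that drives neutrophil production, was at 60.3, 24.9 and 22.1 CPM in middle, 109, 65.9 and 75.1 CPM in high and 25.7, 4.66 and 2.89 CPM in low. It rose by 1.59 ± 0.14 (edgeR adjusted p = 2.01e-05), and replicate 1 was also higher in high, by 0.85. Il1a, the alarm cytokine interleukin-1 alpha, went from 61.6, 64.3 and 70.5 CPM in middle to 86.7, 131 and 152 CPM in high, a rise of 1.07 ± 0.13. Il12a, a subunit of interleukin-12, was at 23.2, 56.04 and 63.4 CPM in middle and 28.4, 109 and 133 CPM in high and rose by 1.02 ± 0.10. For these 3 genes every pair was higher in high, with the smallest step in replicate 1. The growth factor Igf1, made by macrophages, fell, from 17.8 and 15.7 CPM in middle replicates 2 and 3 to 12.4 and 9.45 CPM in high (-0.61 ± 0.13), while in replicate 1 it was at 40.98 and 55.2 CPM.

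Chemokine genes went both ways. Of 18 tested, 5 rose and 2 fell (median 0.02), 4 passes in all without high replicate 3. The CXCR2 ligands Cxcl1 (0.69 ± 0.10), Cxcl2 (0.54 ± 0.09) and Cxcl3 (0.78 ± 0.13) rose. Cxcl2 was at 2871, 2639 and 2913 CPM in middle and 4250.2, 3878 and 4165 CPM in high, and Cxcl3 at 238, 89.7 and 117 and 361, 157 and 196 CPM. Pair by pair, Cxcl1 differed by 0.87, 0.71 and 0.67 on the log2 scale, Cxcl2 by 0.57, 0.56 and 0.52 and Cxcl3 by 0.60, 0.81 and 0.74. The step in replicate 1 was thus the largest of the 3 for Cxcl1 and Cxcl2 and the smallest for Cxcl3. The monocyte attractants Ccl2 (-0.68 ± 0.11) and Ccl7 (-0.51 ± 0.11) fell. Ccl2 stood at 125, 196 and 230.2 CPM in middle and 122, 121 and 145 CPM in high, so replicate 1 was nearly level. Among chemoattractant receptors (18 tested, 2 higher, 2 lower), the formyl peptide receptors Fpr1 (0.53 ± 0.09) and Fpr2 (0.54 ± 0.10) rose, and Cxcr4 (-0.31 ± 0.08), which retains neutrophils in marrow, and C3ar1 (-0.32 ± 0.08), the receptor of complement fragment C3a, fell.

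Of the polarization markers, 6 of 14 tested N1 markers rose and 0 fell (median 0.34), and 1 of 13 N2 markers rose and 4 fell (median -0.02). The passes were 3 for N1 without high replicate 3 and 3 for N2 without middle replicate 3. Cd80, a costimulatory ligand for T cells, was at 38.8, 53.8 and 50.2 CPM in middle and 38.2, 115 and 129 CPM in high, a rise of 1.22 ± 0.09 in replicates 2 and 3 beside level values in replicate 1. Il6 (1.04 ± 0.18) and Il12a rose with it. The N2 marker that rose was Il10 (0.59 ± 0.09), and those that fell were Chil3 (-0.75 ± 0.11), a chitinase-like protein, Ccl2, Prok2 (-0.53 ± 0.09), an angiogenic peptide, and Cxcr4. Arg1, the arginase that marks N2 cells, was at 22.8, 4.97 and 7.72 CPM in middle and 24.03, 5.77 and 33.3 CPM in high. The gels were near level in replicates 1 and 2, and only in replicate 3 was high far above middle. The gene did not pass (1.35 ± 0.59, edgeR adjusted p = 0.303). Nos2 (0.18 ± 0.11), Tnf (0.20 ± 0.08) and Mrc1 (-0.21 ± 0.10), the remaining classical markers, did not pass either.

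NF-kB regulators and targets had the highest share of rises of the 42 lists, with 15 of 26 tested members higher and 0 lower (median 0.37). Rel, an NF-kB subunit, was at 176, 274 and 247 CPM in middle, 154, 418 and 461 CPM in high and 182, 160.3 and 184 CPM in low, and rose by 0.75 ± 0.09 (edgeR adjusted p = 0.000151). Nfkbie, an inhibitor of NF-kB, went from 66.1, 87.7 and 98.3 CPM to 60.7, 161 and 163 CPM and rose by 0.81 ± 0.08 (edgeR adjusted p = 2.83e-05). In both genes replicates 2 and 3 are higher in high and replicate 1 is slightly lower. Their promoters, printed above and chosen for holding a match, have 1 match (Nfkbie) and 2 overlapping matches (Rel) to the kB consensus. Sod2, the mitochondrial superoxide dismutase, rose by 0.63 ± 0.08, from 1066, 822 and 846 CPM to 1181, 1280.5 and 1306 CPM, higher in all 3 pairs. Bcl2a1b, a survival gene of the BCL2 family, rose by 0.93 ± 0.11, a value that is uncertain because near-identical copies of the gene could share reads.

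Genes that act beside NF-kB were mixed. Nlrp3, the sensor of the inflammasome that releases interleukin-1, was at 291, 419.8 and 424 CPM in middle and 344, 743 and 730.5 CPM in high and rose by 0.80 ± 0.08, 1 of 3 rises among 24 inflammasome and cell death genes. Of 29 pattern recognition receptors 7 rose and 2 fell, among them Tlr2 (0.39 ± 0.08), the lectin Clec4e (0.47 ± 0.08) and Treml4 (0.48 ± 0.08) upward, and Cd180 (-0.55 ± 0.09) and its partner Ly86 (-0.38 ± 0.09) downward. Il1r2, a decoy receptor that soaks up interleukin-1, rose by 0.85 ± 0.08, from 22.05, 70.3 and 70.2 CPM to 15.8, 126 and 126 CPM. Replicate 1 went the other way for Il1r2 and was below every other library. Csf1r (0.32 ± 0.08), the receptor of macrophage colony-stimulating factor, and Il10ra (0.35 ± 0.08) rose as well, 2 of 4 rises among 26 cytokine receptors.

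Immediate early and MAP kinase feedback genes divided evenly, 5 of 32 higher and 5 lower (median -0.07). Dusp16, a phosphatase that switches off the kinases JNK and p38, had the smallest adjusted p of all genes named here. It was at 107, 170.3 and 189 CPM in middle, 119.9, 455 and 504 CPM in high and 77.6, 73.2 and 70.1 CPM in low, and rose by 1.41 ± 0.08 (edgeR adjusted p = 3.21e-07). Fosl2, an AP-1 factor, rose by 0.85 ± 0.08, from 168, 467 and 451 CPM to 201, 818 and 837 CPM, whereas its AP-1 partner Jun fell by 0.51 ± 0.10. Zfp36, whose protein tristetraprolin degrades cytokine mRNAs such as that of Tnf, fell: it was at 901, 1711 and 1730.3 CPM in middle and 984, 979.7 and 1156 CPM in high (-0.69 ± 0.09, edgeR adjusted p = 0.000253). The orphan nuclear receptors Nr4a3 (1.36 ± 0.16) and Nr4a2 (1.24 ± 0.17) were among the 12 largest rises of those genes that averaged 5 CPM or more. Phlda1 (0.71 ± 0.13) rose with a like step in replicate 1 (0.74). Cish (0.96 ± 0.17), a STAT5-induced inhibitor of cytokine signalling, and Jak2 (0.33 ± 0.09) were the rises among 20 JAK-STAT and SOCS genes, and Jak1 (0.12 ± 0.08) and Stat3 (0.21 ± 0.08) did not pass.

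Genes of the matrix and of cell attachment included several of the largest rises. Of 31 matrix, proteoglycan and protease genes 10 rose and 5 fell (median 0.11), and 9 passed without high replicate 3. Sdc1, a heparan sulfate proteoglycan of the cell surface, was at 32.1, 25.5 and 30.95 CPM in middle, 47.2, 67.2 and 65.00 CPM in high and 13.5, 6.23 and 5.85 CPM in low, and rose by 1.24 ± 0.11 (edgeR adjusted p = 1.69e-05). Its relatives differed: Sdc4 (0.66 ± 0.09) rose and Sdc3 (-0.58 ± 0.08) fell. The collagenase Mmp13 (1.53 ± 0.22), the matrix protein Thbs1 (0.57 ± 0.09) and Serpinb2 (1.60 ± 0.23), an inhibitor of plasminogen activators, rose, while the plasminogen activator Plau fell (-0.60 ± 0.13). Thbs4 (-2.19 ± 0.27) and the cartilage protein Cilp2 (-2.05 ± 0.24) were the largest falls that the naming rule gave. Cilp2 was at 7.55, 7.61 and 7.65 CPM in middle and 8.89, 1.87 and 1.81 CPM in high, so that only replicates 2 and 3 were lower in high.

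Cass4, a docking protein of focal adhesions, rose by 1.43 ± 0.09, from 6.07, 64.7 and 76.9 CPM in middle to 5.97, 183 and 197 CPM in high (edgeR adjusted p = 6.06e-07). Its level in replicate 1 was below that of the other libraries by a wide margin in both gels. Tes (0.98 ± 0.10), a focal adhesion protein, Tpm4 (0.40 ± 0.08), a tropomyosin, and Lcp1 (0.30 ± 0.08), the actin bundler of leukocytes, rose too, and Rhob (-0.33 ± 0.08) fell, 4 rises and 1 fall among 43 focal adhesion and actin genes. Of 23 integrin and adhesion genes 2 rose (Itga5, 0.32 ± 0.08, and Itgal, 0.29 ± 0.08) and 2 fell. Itgb3, a fibronectin and vitronectin receptor chain, was at 89.3, 106 and 98.8 CPM in middle and 61.9, 77.9 and 68.8 CPM in high and fell by 0.49 ± 0.10, with the same step in replicate 1 (-0.53). Of 17 mechanosensing channel and YAP-TAZ genes only Srf (0.32 ± 0.08), an actin-regulated transcription factor, passed. The stretch-gated channel gene Piezo1 was at 159, 175 and 161 CPM in middle and 184, 148 and 131 CPM in high and did not pass (-0.27 ± 0.09, edgeR adjusted p = 0.0722).

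**Figure D2:**
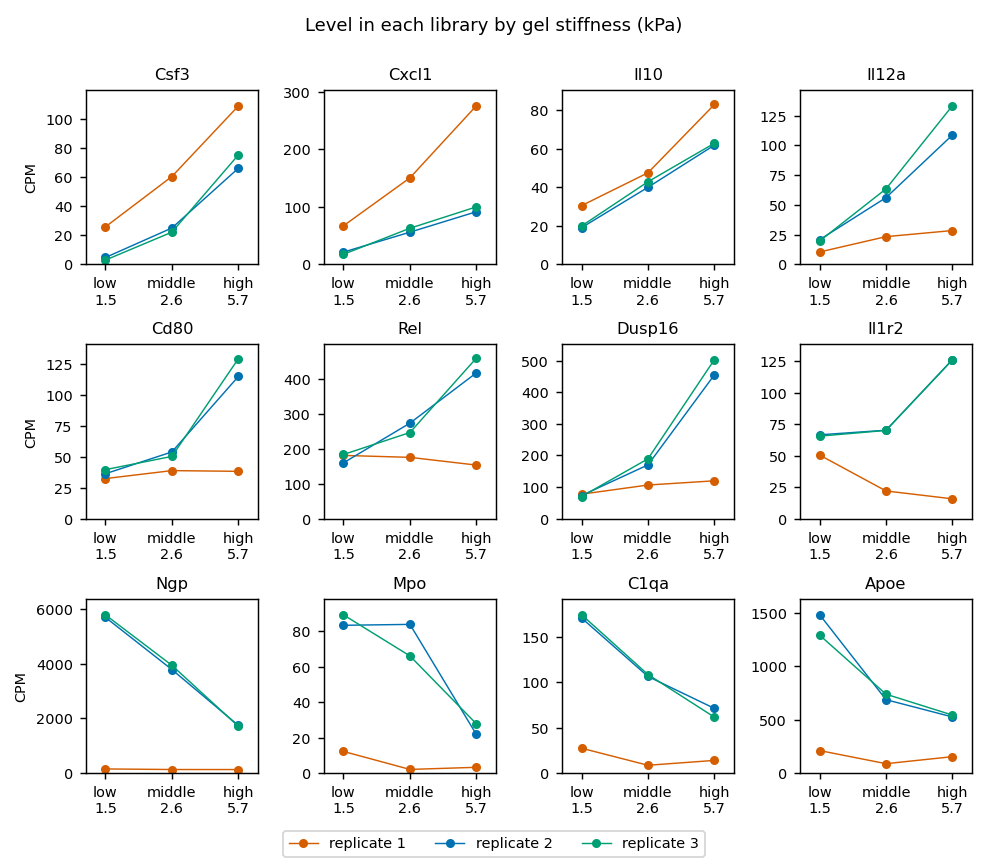
Level of 12 genes in each of the 9 libraries, in CPM on a linear axis from 0, against gel stiffness in kPa, with lines joining libraries of the same replicate number. Csf3, Cxcl1 and Il10 are higher in high than in middle in all 3 replicates. Dusp16, Cd80 and Rel climb steeply in replicates 2 and 3 only, and from middle to high Ngp, C1qa and Apoe fall in those replicates, while in replicate 1 Ngp is level and C1qa and Apoe are higher in high.

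Granule genes had more falls than rises. Of 25 tested neutrophil granule genes 5 rose and 11 fell (median -0.33). In replicate 1, 20 of the 25 were higher in high and 5 lower (median 0.14), where 49.6% of all genes were higher. Mpo, the myeloperoxidase of azurophil granules, was at 2.07, 83.9 and 66.1 CPM in middle, 3.27, 21.8 and 27.8 CPM in high and 12.2, 83.4 and 89.2 CPM in low, and fell by 1.61 ± 0.14 (edgeR adjusted p = 4.55e-05). Elane, neutrophil elastase, fell by 1.33 ± 0.14, from 27.3 and 23.4 CPM to 9.78 and 10.4 CPM in replicates 2 and 3, and was at 0.518 and 1.14 CPM in replicate 1. Both genes were low in all replicate 1 libraries. Ngp, a granule protein of the myelocyte stage, was at 131, 3792 and 3946 CPM in middle and 129.8, 1746 and 1714 CPM in high and fell by 1.16 ± 0.09 (edgeR adjusted p = 1.6e-06), with level values in replicate 1. Cd177, a surface protein of secondary granules, fell by 0.69 ± 0.08. The granule list's rises included genes known to be induced by inflammation: Lcn2 (0.55 ± 0.09), an iron scavenger, Chil1 (0.50 ± 0.09), Hp (0.42 ± 0.11) and Orm1 (0.76 ± 0.14). Lcn2 stood at 1175, 2240.4 and 2456 CPM in middle and 1294, 3160.5 and 3738 CPM in high.

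A list of 14 granulocyte precursor genes, added after these values were seen, had 10 falls and 0 rises (median -0.99). Mpo, Elane and Fcnb, already given above, are among the 10. In replicate 1, 10 of the list's genes were higher in high and 4 lower (median 0.50). The list's summed level was 41.96, 162.6 and 169.2 CPM per kilobase in middle and 53.92, 91.49 and 86.9 in high. From bulk RNA, fewer cells of a type and less RNA per cell cannot be told apart. Cell cycle genes fell as well: of 28 tested, 0 rose and 7 fell (median -0.34, and 2 passed without high replicate 3). Top2a, a topoisomerase of replicating cells, was at 14.6, 67.7 and 67.7 CPM in middle and 10.9, 53.6 and 46.5 CPM in high (-0.44 ± 0.09), and Plk1 (-0.90 ± 0.18), Birc5 (-0.88 ± 0.17) and Ccna2 (-0.57 ± 0.13), all of dividing cells, fell as well. The part of precursor or dividing cells in the granule gene falls was not tested. Mature neutrophil genes went both ways, 9 of 27 higher and 4 lower (median 0.24). Acod1, which makes the metabolite itaconate, went from 1574, 1916 and 2028 CPM to 1829, 3076 and 3433 CPM (0.72 ± 0.09), whereas Retnlg (-1.06 ± 0.10), a resistin-like protein, and Ly6g (-1.04 ± 0.14), the surface marker used to sort neutrophils, fell.

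More macrophage genes fell than rose: of 27 tested, 15 fell and 2 rose (median -0.43). In replicate 1, 20 of the 27 were higher in high and 7 lower (median 0.12). C1qb, a chain of complement C1q, was at 45.7, 249 and 267 CPM in middle, 63.3, 166 and 139.9 CPM in high and 79.7, 381 and 357 CPM in low, and fell by 0.76 ± 0.09 (edgeR adjusted p = 0.000105). C1qc (-0.72 ± 0.09), Axl (-0.83 ± 0.10), a receptor for dying cells, and Lgmn (-0.63 ± 0.08), a lysosomal protease, fell with it. Lgmn was at 440.4, 443 and 441 CPM in middle and 563, 295 and 275 CPM in high, so replicate 1 was higher in high and the others were lower. Gpnmb, a glycoprotein of lipid-laden macrophages, was at 4562, 2102 and 1777 CPM in middle and 4609, 1411 and 1165 CPM in high (-0.59 ± 0.09). The members that rose were Csf1r and Cd163 (0.82 ± 0.23), a hemoglobin scavenger receptor. Of 34 lysosomal genes 0 rose and 2 fell (median -0.12), a share near that of all genes. At an unadjusted p under 0.05 there were 1 higher and 8 lower, and 4 passed without high replicate 2, middle replicate 2 or middle replicate 3, and 0 without high replicate 3.

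Genes of other marrow lineages held falls. Of 13 eosinophil, basophil and mast cell genes 5 fell and 0 rose (median -0.64), among them the eosinophil granule gene Prg2, at 3.48, 34.1 and 41.4 CPM in middle and 4.91, 16.4 and 16.2 CPM in high (-1.20 ± 0.12). Of 14 dendritic cell genes 4 fell, among them Irf8 (-0.43 ± 0.09) and Siglech (-0.82 ± 0.20). Of 12 megakaryocyte and erythroid genes 3 fell, among them Itga2b (-0.55 ± 0.15), and of 10 lymphocyte genes the B cell factors Pax5 (-0.68 ± 0.12) and Ebf1 (-0.64 ± 0.18) fell. Of these 4 lists none had a rise. Without high replicate 3 they had 3, 0, 0 and 0 passes in that order, and by DESeq2 2, 1, 1 and 1. Pax5 was at 4.07, 50.6 and 52.2 CPM in middle and 5.05, 36.8 and 27.5 CPM in high, so replicate 1 was low in both gels. The sum of the 4 B cell markers was 18.75, 81.72 and 103.9 CPM per kilobase in middle and 21.76, 81.51 and 52.17 in high, lower in high in replicate 3 and level in replicate 2. The part of these lineages in the gene differences was not tested.

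Interferon-stimulated genes that passed all fell, with 0 rises and 11 falls among 43 tested (median -0.27). Tgtp2, an interferon-induced GTPase, was at 2.89, 16.04 and 18.04 CPM in middle, 2.70, 8.88 and 9.65 CPM in high and 15.8, 33.6 and 33.6 CPM in low, and fell by 0.88 ± 0.14 (edgeR adjusted p = 0.00119). Iigp1 (-1.33 ± 0.21), another such GTPase, Ifit2 (-0.73 ± 0.14), which blocks viral translation, and Ifi44 (-0.65 ± 0.14) fell too. Ifit2 was at 72.3, 311 and 336 CPM in middle and 79.3, 153 and 244 CPM in high, with high replicate 3 nearer to middle replicates 2 and 3 than high replicate 2 was. The count of 11 was 6 by DESeq2 and 3 without the replicate block. It was 3 and 21 without high replicate 2 and 3, and 5 and 17 without middle replicate 2 and 3. Replicate 1 had the same direction for most of this list: 38 of its 43 genes were lower in high in replicate 1, with a median log2 difference of -0.29, beside -0.46 and -0.11 in replicates 2 and 3. Over all genes 50.4% were lower in replicate 1. MHC class I genes, which interferon also induces, had 0 passes of 18 by edgeR (median -0.03, 2 lower at an unadjusted p under 0.05, 1 called by DESeq2 and 1 without high replicate 3 or either middle library), with H2-D1 at 0.00 ± 0.09 and B2m at -0.33 ± 0.10 (edgeR adjusted p = 0.0522).

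Metabolic genes that passed mostly rose. Of 22 glycolysis genes 6 rose and 0 fell (median 0.20), and of 24 hypoxia targets 5 rose and 0 fell (median 0.22). Slc16a1 (1.23 ± 0.14) and Slc16a3 (0.57 ± 0.08), lactate transporters, and Slc2a1 (0.46 ± 0.08), a glucose transporter, were among those of the first list. Slc16a1 was at 21.4, 12.9 and 16.9 CPM in middle and 26.1, 35.3 and 34.1 CPM in high, higher in all 3 pairs with the smallest step in replicate 1. Hilpda (0.61 ± 0.11), a lipid droplet protein, Ero1a (0.38 ± 0.08), an oxidase of the endoplasmic reticulum, and again Slc2a1 were among the hypoxia targets that rose. Of 22 NRF2 and glutathione genes 6 rose and 1 fell, among them Slc7a11 (0.45 ± 0.08), a cystine importer, and Srxn1 (0.44 ± 0.09). Of 26 unfolded protein response and ATF4 genes 5 rose and 0 fell (2 passes by DESeq2, 1 without either high library), among them Asns (0.57 ± 0.10).

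Lipid and arginine genes showed smaller groups of rises. Of 27 cholesterol and fatty acid synthesis genes 4 rose and 0 fell: Scd1 (0.79 ± 0.10), Scd2 (0.44 ± 0.10), Insig1 (0.59 ± 0.09) and Srebf1 (0.46 ± 0.09). Of 14 arginine and polyamine genes 4 rose and 0 fell (2 passes by DESeq2). Among them were the cationic amino acid transporters Slc7a1 (0.52 ± 0.09) and Slc7a2 (1.95 ± 0.38) and the mitochondrial arginase Arg2 (0.51 ± 0.09). Despite its large step, Slc7a2 was not among the 12 largest rises, which had to average at least 5 CPM with the same sign in each pair. Of 17 prostaglandin and leukotriene genes 4 rose and 2 fell. Ptges, which makes prostaglandin E, was at 34.03, 32.8 and 41.1 CPM in middle and 37.04, 76.9 and 83.2 CPM in high and rose by 1.12 ± 0.13, with Ptgs2 (0.44 ± 0.08), and Hpgds (-0.49 ± 0.11) fell. Of 18 lipid efflux and storage genes 2 rose, the cholesterol exporters Abca1 (0.56 ± 0.09) and Abcg1 (0.44 ± 0.09), and 4 fell, among them Apoe (-0.42 ± 0.09). Housekeeping lists had no passes by edgeR or DESeq2. These were 24 respiratory chain genes, 0 of them at an unadjusted p under 0.05, and 36 ribosomal protein genes, with 2 at that level, though without middle replicate 3 the counts were 4 and 17. The ribosomal protein gene Rpl4 stood at 789.6, 649.8 and 665 CPM in middle and 863, 659.6 and 633 CPM in high.

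**Figure D3:**
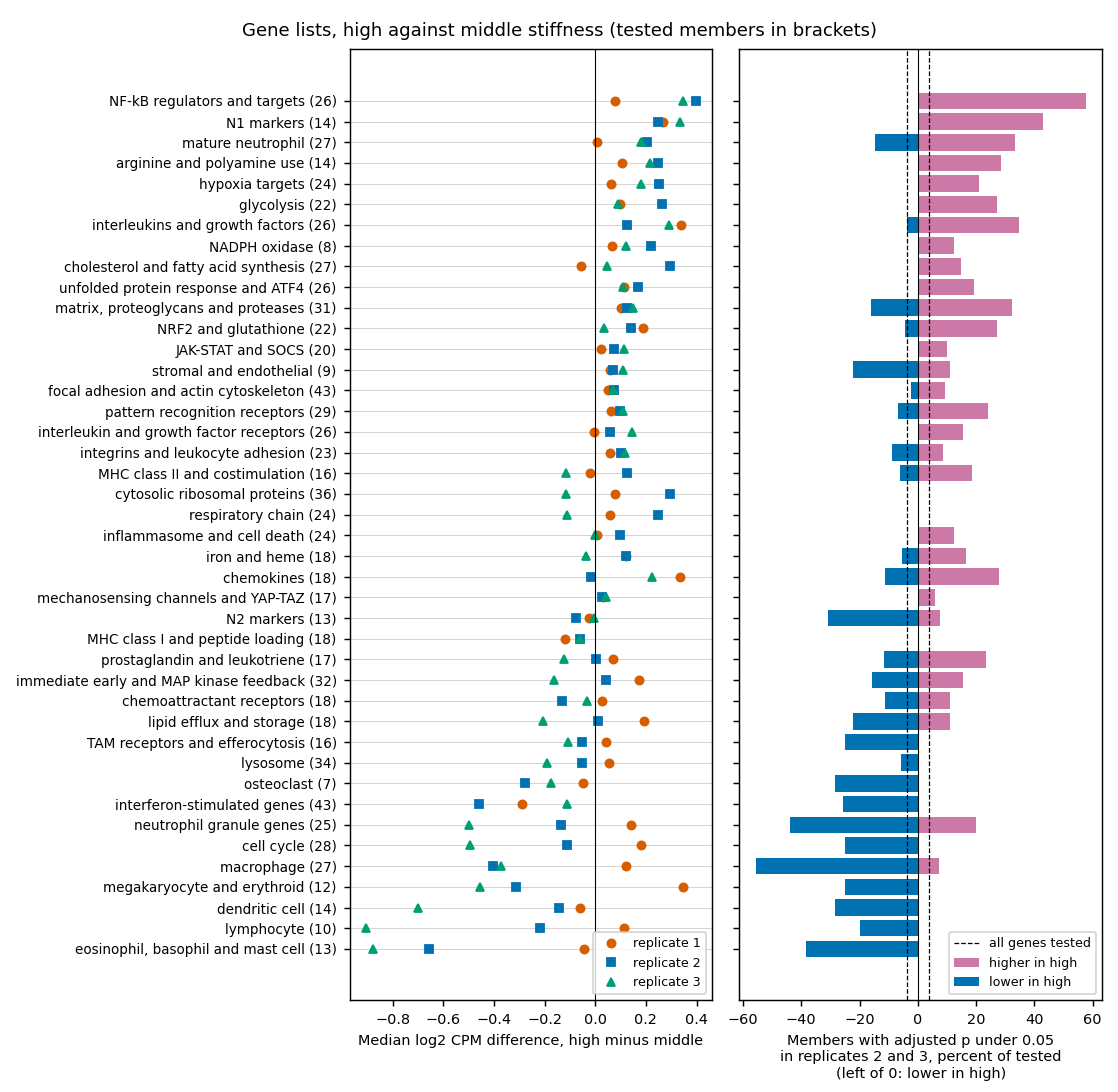
Left, median log2 difference of high minus middle over the tested members of each of 42 gene lists, for replicates 1, 2 and 3 separately. Right, percent of tested members with an adjusted p under 0.05 in replicates 2 and 3, higher to the right and lower to the left of 0, with dashed lines at the 3.68% of all genes. NF-kB genes reach the highest share of rises (15 of 26) and macrophage genes the highest share of falls (15 of 27), and in both lists the replicate 1 median lies apart from those of replicates 2 and 3.

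Replicate 1 agreed in part with replicates 2 and 3. Of the 900 genes that passed in replicates 2 and 3, 896 were tested in all libraries, and 567 of those (63.3%) had the same sign in replicate 1, against 54.2% of all genes. Of 447 rises 304 (68%) were also higher in high in replicate 1, where 49.6% of all genes were, and of 449 falls 263 (58.6%) were also lower, where 50.4% were. The sizes agreed less. The median log2 difference of the rises was 0.48 in replicates 2 and 3 and 0.10 in replicate 1, and that of the falls was -0.57 and -0.06. Over the 9287 genes that averaged 5 CPM or more, the high minus middle differences of replicates 1 and 2 had a correlation of 0.24 across genes, those of replicates 1 and 3 of 0.04, and those of replicates 2 and 3 of 0.49. Genes are not independent replicates and what the libraries of a pair share is not stated, so these are descriptions without a test. The spread of the differences was alike, with a standard deviation over genes of 0.25 in replicate 1 and 0.29 in replicates 2 and 3. All 3 differences had the same sign for 1986 genes higher (16.4%) and 2074 lower (17.1%).

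The agreement differed by gene group. Among N1 markers that rose 5 of 6 were also higher in replicate 1 (Cd80 was the exception), and 11 of the 14 tested were. Of the 15 matrix genes that passed 14 kept their sign in replicate 1, and of the 16 granule genes 8 did. For the 15 NF-kB genes it was 8, and for the 17 macrophage genes 6, with list medians in replicate 1 of 0.08 and 0.12. Chemokines had a higher median in replicate 1 (0.33) than in the other replicates (-0.02 and 0.22). Of the 28 cell cycle genes 17 were higher and 11 lower in high in replicate 1, where 2 of the 7 that fell kept their sign, and the medians were 0.18, -0.11 and -0.49 in replicates 1, 2 and 3.

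**Figure D4:**
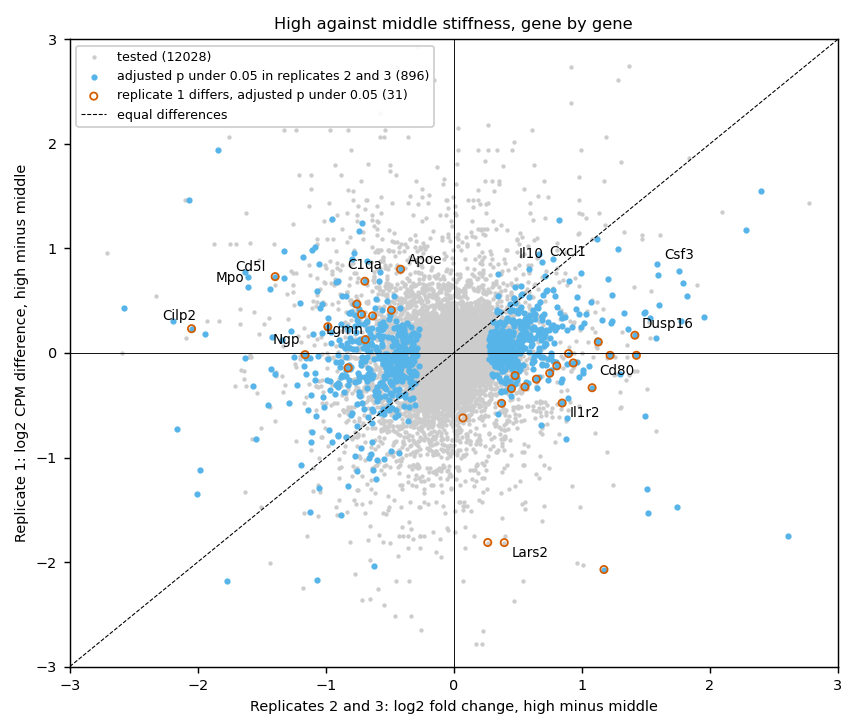
Each point is a gene, with the log2 fold change of high against middle in replicates 2 and 3 on the horizontal axis and the log2 CPM difference in replicate 1 on the vertical axis (7 of 12028 genes lie outside the axes). Most of the 896 blue genes lie near the horizontal line at 0, few along the dashed diagonal of equal differences, and the 31 orange circles mark genes for which the difference between replicate 1 and the others passed the test.

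A test of that difference itself, an interaction over all 9 libraries, called 31 genes (0.256%), with 1364 at an unadjusted p under 0.05. The high minus middle difference was higher in replicate 1 for 12 of the 31 and lower for 19. Of the 31, 28 are among the 900. The spread in this test comes from replicates 2 and 3 only, since replicate 1 has 1 library per gel. Dusp16 had the same direction but a far smaller step in replicate 1, 107 against 119.9 CPM, and the difference of the effects was -1.24 ± 0.14 (edgeR adjusted p = 0.00399). Il1r2 differed by -1.33 ± 0.15 (0.00399), Cd80 by -1.25 ± 0.17 (0.00943), Rel by -0.95 ± 0.16 and Nfkbie by -0.93 ± 0.15 (both 0.0278, all edgeR adjusted p). These genes rose in replicates 2 and 3, and all but Dusp16 were level or lower in high in replicate 1.

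Genes whose high minus middle difference was higher in replicate 1 included Ngp (1.15 ± 0.13, edgeR adjusted p = 0.00399), Apoe (1.22 ± 0.15), Lgmn (0.99 ± 0.12), C1qb (1.22 ± 0.16), C1qc (1.09 ± 0.17), Cd5l (2.12 ± 0.35) and Zfp36 (0.82 ± 0.15). Apoe, a lipid carrier made by macrophages, was at 88.1, 686 and 738 CPM in middle and 154, 525 and 543 CPM in high. In replicate 1 it was higher in high by 0.80 on the log2 scale, at a level far below the other libraries. Lars2, a mitochondrial leucyl-tRNA synthetase, was at 147, 14.3 and 12.03 CPM in middle, 41.7, 19.9 and 14.9 CPM in high and 48.9, 16.6 and 14.2 CPM in low. Its level was higher in replicate 1 than in replicates 2 and 3 in every gel, and by far the highest in middle replicate 1. The interaction was -2.21 ± 0.24. The count of 31 became 289 and 89 without high replicate 2 and 3, and 10 and 6 without middle replicate 2 and 3.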

How the data were processed

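RNA of 9 libraries was sequenced, 3 for each of 3 gel stiffnesses, and high and middle were compared. The authors deposited whole-number read counts per gene, FPKM values and a gene size, per the file headers. Per the submitters' processing notes the build was GRCm39 and the tools were HTSeq 0.6.1, HISAT2 2.0.1, cutadapt 1.9.1 and an unversioned DESeq2. The labels do not say whether counting used strand, so overlapping and antisense genes cannot be told apart. The deposited FPKM matched FPKM recomputed from the deposited counts and gene size within 0.005 and were not otherwise used.

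Counts were tested in edgeR 4.0.16 (R 4.3.3, limma 3.58.1) with the default count filter, TMM factors, robust quasi-likelihood F tests and the replicate number as a block, over 9 libraries of 13172879 to 19486546 counts each. P-values were two-sided, adjusted by Benjamini-Hochberg over all tested genes, and called under 0.05. Standard errors were taken as the size of the log2 change over the root of the F statistic. The same fit was made on replicates 2 and 3, and the interaction of stiffness with replicate 1 on all libraries. Log2 differences within a pair used a prior count of 2. CPM per kilobase used the deposited gene size. The fitting code was tested on simulated data.

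Deviations from the gel means correlated by 0.765 to 0.856 among the replicate 1 libraries, and by -0.777 to -0.65 between replicate 1 and either other number. Among replicates 2 and 3 they correlated by 0.595 to 0.674 within a number and by 0.552 to 0.698 across numbers. The correlations thus set replicate 1 apart and do not tell replicates 2 and 3 from each other. Every same-number correlation was over 0.1, the level at which numbers were taken as pairs. The labels do not say what a number stands for.

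The comparison, the 42 gene lists (865 of 871 symbols found) and the cell type markers were chosen with earlier results of these data known. The naming rule took the 12 largest rises and 12 largest falls at a mean of at least 5 CPM with the same sign in every pair, up to 4 called members of each list in each direction or else its 2 most abundant members, 11 set markers, and 6 genes of the interaction. No gene met its first part with 3 replicates, so the rule was applied to replicates 2 and 3 after that was seen. Alternatives were DESeq2 1.42.0, limma-voom, other size factors, other filters, other blocks and leaving out libraries. Promoters came from RefSeq, matched by symbol.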

Additional observations from a re-analysis of the deposited data

Results flagged for a closer look

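For 16 of the genes named, the high minus middle effect in replicate 1 differed from that in replicates 2 and 3 by the interaction test (edgeR adjusted p under 0.05). The values are log2 effects in replicate 1 minus those in replicates 2 and 3. They were below 0 for Cass4 (-1.45), Dusp16 (-1.24), Cd80 (-1.25), Il1r2 (-1.33), Nfkbie (-0.93), Bcl2a1b (-1.03) and Rel (-0.95), which rose in replicates 2 and 3, and for Lars2 (-2.21), which did not pass there. They were above 0 for Cilp2 (2.28), Cd5l (2.12), Ngp (1.15), Zfp36 (0.82), C1qb (1.22), C1qc (1.09), Lgmn (0.99) and Apoe (1.22), which fell in replicates 2 and 3. Replicate 1 has 1 library per gel, so this test carries the spread of the other replicates over to it.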

How the results depend on the processing

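With 3 replicates, the 2 calls of the blocked edgeR fit became 0 with no replicate block, 16 with a block of 2 levels, 118 on the 6 high and middle libraries alone, 96 with DESeq2, 1 with limma-voom, 1 with RLE size factors, 40 with no filter and 0 with the 5 CPM filter. Leaving out replicates or single libraries gave 0 to 900 calls, the highest without replicate 1. List members called were 0, and 6 with the block of 2 levels, 36 on the 6 libraries, 32 with DESeq2, 9 with no filter, and 0 to 209 when a replicate or library was left out. In replicates 2 and 3 the 900 calls became 840 with no replicate block, 637 on 4 libraries, 884 with RLE size factors, 766 with the 5 CPM filter and 540 with DESeq2, and 460 to 1551 when 1 library was left out. The share with the same sign in replicate 1, 63.3%, was 66.7% with DESeq2 and at most 65.1% otherwise. The interaction count of 31 became 60 with a further replicate block term for replicate 3, 27 with RLE size factors, 22 with the 5 CPM filter, and 6 to 289 when 1 library was left out. No named gene that passed in the main fit or in an alternative changed sign between them. Genes that passed in neither could change sign, as 3 did by more than their standard error in replicates 2 and 3 without middle replicate 2. Of the 192 genes followed in replicates 2 and 3, 68 lost their call without high replicate 3, 33 without high replicate 2, 44 without middle replicate 2 and 16 without middle replicate 3, and 26 with DESeq2. Between the lowest and highest leave-one-out count, NF-kB genes had 11 to 15 calls, granule genes 11 to 17, macrophage genes 12 to 19, pattern recognition receptors 4 to 16, cytokine receptors 2 to 4, chemoattractant receptors 2 to 7, inflammasome and cell death genes 2 to 7, JAK-STAT and SOCS genes 2 to 6, integrins 1 to 7, focal adhesion and actin genes 2 to 12, mechanosensing genes 0 to 5, glycolysis genes 4 to 12, hypoxia targets 2 to 6, NRF2 genes 3 to 9, cholesterol genes 3 to 9, arginine genes 2 to 5, lysosomal genes 0 to 4 and prostaglandin genes 2 to 7. DESeq2 called 4 NRF2 genes where edgeR called 7, 2 arginine genes where it called 4, and 0 mechanosensing genes where it called 1. The cause of these moves was not tested. A count of 2 calls with 3 pairs limits what the comparison can show for any one gene.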
